A study of Caenorhabditis elegans with 6 samples.

Results

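Chondroitin and heparan sulfate are glycosaminoglycans, long sugar chains that are built on core proteins in the Golgi and displayed on cell surfaces and in the extracellular matrix. Cells first provide activated sugars in the Golgi, then 4 transferases build a short linker on a serine of the core protein. Polymerases extend that linker into either chain. In Caenorhabditis elegans the squashed vulva (sqv) genes encode this machinery, and their mutants are known for a vulva whose lumen stays collapsed at the L4 stage and for failed early cell division in embryos. The genes described here are sqv-1 to sqv-8 and mig-22, taken as the rows of the array table whose platform annotation gives exactly 1 of these symbols. All 9 were found, with 1 row each, among 26192 tested rows. No measured value entered this rule, but the genes were chosen with earlier results of these data known. Those of sugar supply and of the linker serve both chains, while sqv-5 and mig-22 serve chondroitin. Enzymes that act on heparan alone are given after them.

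Whole wild-type N2 hermaphrodites staged as L4 were measured on 6 Affymetrix arrays. The perchlorate group (3 arrays) had been kept from L1 for 48 hours at 20 °C with 1 mg/mL sodium perchlorate in both agar and E. coli OP50 food. The control group (3 arrays) had been raised for the same time on plain nematode growth medium. The growth and treatment notes of the controls repeat the exposure, whereas their titles and treatment entries call them controls and their descriptions mention no perchlorate; the titles were followed. No label says that replicates were separate cultures, so a p-value here measures only how these arrays scatter, and that scatter could be technical. Values are log2 probe set values made by the authors with RMA, and 1 unit is a doubling. On the first principal component of the 6 arrays, which held 38.9% of the variance, perchlorate replicate 1 scored 47.7; its group's other arrays scored 12.2 and 13.1, and control arrays scored from -27.2 to -20.0. It thus stood apart. Because whole animals were extracted, fewer cells of a type and less RNA per cell cannot be told apart.

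The comparison asked whether perchlorate during larval growth goes with different transcript levels of glycosaminoglycan synthesis genes. Of the 9 genes 0 passed at a limma adjusted p under 0.05, where 0.00764% of all tested rows did, and their limma adjusted p lay between 0.285 and 0.963. At an unadjusted limma p under 0.05, 1 gene was higher with perchlorate (sqv-7) and 0 were lower, beside 8.46% and 7.92% of all rows, or 16.4% in either direction. Differences of the 9 ran from -0.09 to 0.33 with a median of 0.10, against a median of 0.03 over all tested rows. Without perchlorate replicate 1 the median of the 9 was 0.09. At that setting 0 of the 9 genes reached the unadjusted threshold, beside 7.24% of all rows lower and 7.03% higher. The median was -0.05 without perchlorate replicate 2. Perchlorate means lay above control means for 5 genes and below them for 4. Their precision was mostly better than that of the median row: 8 of the 9 standard errors, which ran from 0.101 to 0.173, were under the all-row median of 0.153. Over the 9 genes the 95% intervals of the difference, each taken for 1 gene alone, reached down to -0.36 and up to 0.65, which are ratios of 0.777 and 1.56 of perchlorate to control. Of the 9 intervals 8 include 0, all but that of sqv-7, and an interval that includes 0 does not show equal levels. All 9 genes lay above the median of the array on every array, with values between 8.53 and 10.46, so none was near the dim end of the scale.

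**Figure D1:**
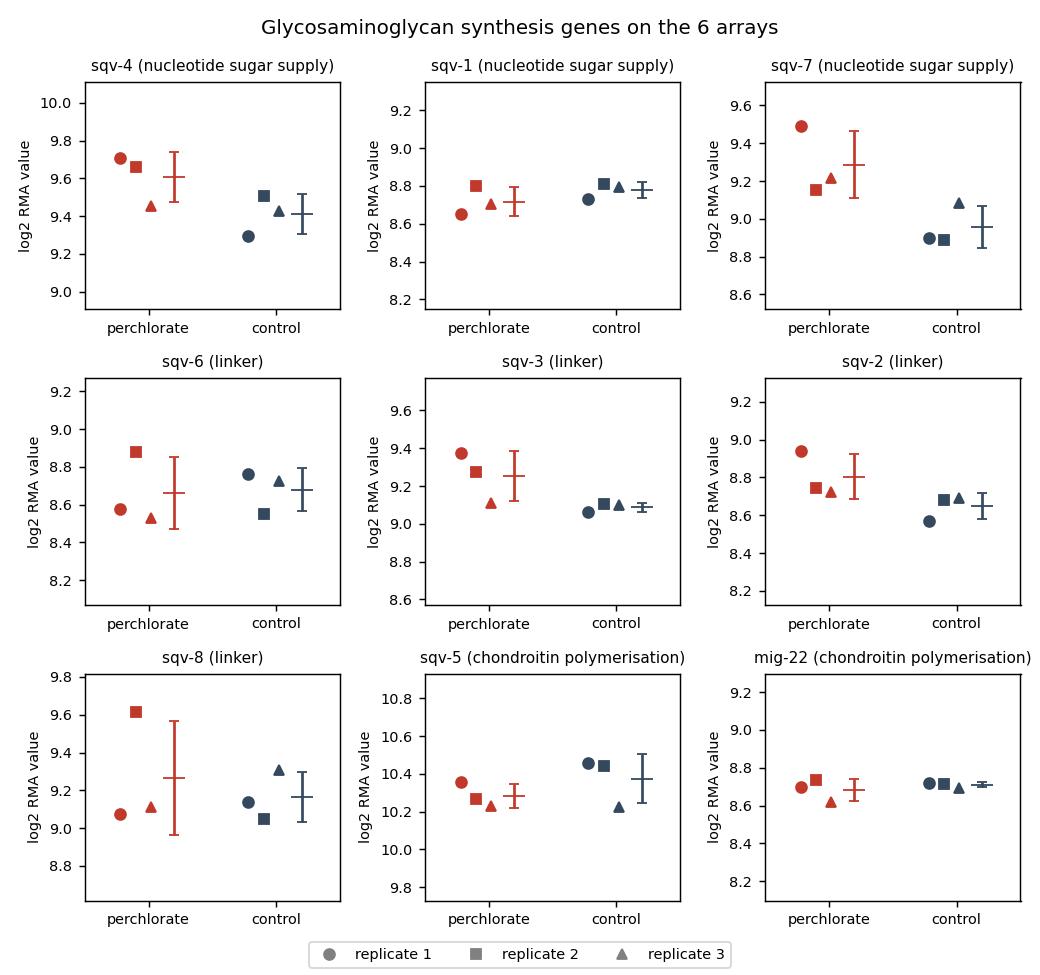
Log2 RMA values of the 9 genes on the 3 perchlorate arrays and 3 control arrays, with the mean and SD beside the points; every panel spans the same number of log2 units. The perchlorate points lie wholly above the control points for sqv-7, sqv-3 and sqv-2 and overlap them for the other 6 genes.

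Among genes of activated sugar supply, sqv-4 encodes the UDP-glucose dehydrogenase that makes UDP-glucuronic acid, a building block of both chains. Its log2 values were 9.71, 9.66 and 9.45 on the perchlorate arrays, against 9.29, 9.50 and 9.43 on the control arrays. Perchlorate replicates 1 and 2 were above every control, and replicate 3 lay within the control range. The log2 difference of sqv-4 was 0.20 (SE 0.123, limma adjusted p = 0.465), with a 95% interval from -0.09 to 0.49.

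UDP-glucuronic acid is in turn converted to UDP-xylose, the donor of the first linker sugar, by the decarboxylase that sqv-1 encodes. For sqv-1 the values were 8.65, 8.80 and 8.70 with perchlorate, against 8.73, 8.81 and 8.79 in controls. The groups overlapped, and the difference of -0.06 (SE 0.105, limma adjusted p = 0.807) was smaller than its standard error. Its 95% interval ran from -0.31 to 0.19. The difference of sqv-1 was -0.10 without perchlorate replicate 2 and -0.03 without perchlorate replicate 1, the ends of its range with 1 array left out.

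The transporter that moves UDP-glucuronic acid, UDP-galactose and UDP-N-acetylgalactosamine into the Golgi is the product of sqv-7. It measured 9.49, 9.16 and 9.22 on the perchlorate arrays, against 8.90, 8.89 and 9.08 on the control arrays. All 3 perchlorate values lay above all 3 control values, with a gap of 0.071 log2 units between the lowest of the one group and the highest of the other. Mean levels of sqv-7 were 9.29 ± 0.180 with perchlorate and 8.96 ± 0.110 in controls (SD, n = 3 each). The log2 difference of 0.33 (SE 0.134) is a ratio of 1.26, and it did not pass over all rows (limma adjusted p = 0.285). Of all tested rows 87.6% had a lower difference than sqv-7. The unadjusted p of limma was above 0.05 when perchlorate replicate 1 was left out (0.117), and likewise without perchlorate replicate 3 (0.054), control replicate 1 (0.116) or control replicate 2 (0.12). The difference of sqv-7 without one of the 6 arrays lay between 0.23, without perchlorate replicate 1, and 0.40.

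Linker assembly begins with sqv-6, the xylosyltransferase that puts xylose on the serine. Its values of 8.58, 8.88 and 8.53 with perchlorate stood against 8.76, 8.55 and 8.72 in controls. Perchlorate replicate 2 was the highest of the 6 arrays and perchlorate replicate 3 the lowest, so the groups overlapped throughout. The log2 difference of sqv-6 was -0.02 (SE 0.137, limma adjusted p = 0.963), and its sign changed with the array left out.

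Galactose is added next by the galactosyltransferases that sqv-3 and sqv-2 encode, which work on the linker in that order. Values of sqv-3 were 9.38, 9.27 and 9.11 with perchlorate, against 9.06, 9.11 and 9.10 in controls. Those of sqv-2 were 8.94, 8.75 and 8.72 with perchlorate, against 8.57, 8.68 and 8.69 in controls. Neither gene's groups overlapped, but the gaps were narrow, 0.0064 log2 units for sqv-3 and 0.034 for sqv-2. With each array centred on its median the groups of both overlapped. Without perchlorate replicate 1 the difference was 0.10 for sqv-3 and 0.09 for sqv-2. The log2 differences were 0.17 (SE 0.114, limma adjusted p = 0.508) for sqv-3 and 0.16 (SE 0.115, limma adjusted p = 0.539) for sqv-2, with 95% intervals from -0.10 to 0.44 and from -0.11 to 0.43.

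The glucuronosyltransferase that completes the linker is encoded by sqv-8. It measured 9.08, 9.61 and 9.11 with perchlorate, against 9.14, 9.05 and 9.31 in controls. Perchlorate replicate 2 was the highest of the 6 arrays, and the other perchlorate arrays lay inside the control range. Its SD with perchlorate, 0.301, was the largest of the 9 genes in either group. The log2 difference of sqv-8 was 0.10 (SE 0.173, limma adjusted p = 0.81) with all arrays and -0.07 without perchlorate replicate 2.

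Chain growth of chondroitin needs sqv-5, the chondroitin synthase, together with mig-22, the chondroitin polymerising factor, known also from mutants with misdirected gonad migration. Values of sqv-5 were 10.36, 10.27 and 10.23 with perchlorate, against 10.46, 10.44 and 10.22 in controls. Control replicate 3 was the lowest of the 6 arrays, below all perchlorate arrays, so the groups overlapped. The log2 difference of sqv-5 was -0.09 (SE 0.116, limma adjusted p = 0.741), with a 95% interval from -0.36 to 0.18. It was -0.17 without control replicate 3 and -0.05 without control replicate 1, the ends of its range over the 6 arrays left out in turn. For mig-22 the arrays gave 8.70, 8.73 and 8.62 with perchlorate, against 8.72, 8.72 and 8.69 in controls. Its control SD of 0.0142 was the smallest of the 9 genes, and its perchlorate SD was 0.0583. The difference of mig-22, -0.03 (SE 0.101, limma adjusted p = 0.922), had a 95% interval from -0.26 to 0.21.

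By step, 1 of the 3 sugar supply genes (sqv-7), 2 of the 4 linker genes (sqv-3 and sqv-2) and 0 of the 2 polymerisation genes had groups that did not overlap, all of them higher with perchlorate. Over all tested rows 24% did not overlap, 12.8% on the higher side and 11.2% on the lower side. Among rows above the median level, where all 9 genes lie, these shares were 16.6% and 17%. Median differences were 0.20 for sugar supply, 0.13 for the linker and -0.06 for polymerisation. No difference between the steps was tested.

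The genes also varied in how their values ran over the arrays. Each gene was centred on its own mean over the 6 arrays, and the root mean square distance between genes was taken as the measure of likeness over those 6 values. Closest were sqv-2 and sqv-3, at 0.0485 log2 units, followed by sqv-3 and sqv-4 at 0.0527 and by sqv-1 and mig-22 at 0.0534. Farthest apart were sqv-7 and sqv-8, at 0.282. On perchlorate replicate 1 sqv-2, sqv-3, sqv-4 and sqv-7 had their highest value of the 6 arrays, sqv-6, sqv-8 and mig-22 had theirs on perchlorate replicate 2, and sqv-1 and sqv-5 had theirs on a control array. Perchlorate replicate 3 was the lowest of the perchlorate arrays for 6 of the 9 genes. The SD was larger with perchlorate than in controls for 8 of 9 genes, with medians of 0.133 and 0.106. Over all rows the median SDs were 0.193 with perchlorate and 0.147 in controls.

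Among 25477 other genes the 5 with a profile most like that of sqv-7, which had the largest difference of the 9, were sft-1, C15C8.4, ZC328.5, lir-2 and chaf-1. Their distances to sqv-7 were between 0.0276 and 0.0346 log2 units, and their differences lay between 0.31 and 0.33. Because they were chosen by likeness over these same arrays, similar differences and a similar order of arrays follow from the choice. The gene nearest to it, sft-1, measured 8.23, 7.99 and 8.02 with perchlorate, against 7.69, 7.67 and 7.89 in controls. As in sqv-7, perchlorate replicate 1 was highest and control replicate 3 was the highest control. Of the other synthesis genes sqv-2 came nearest to sqv-7, at 0.111.

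Related genes were taken from 4 lists of heparan enzymes, sulfation and sugar supply, and core proteins of both kinds, of which 25 of 30 listed genes were read here. Of these 25 genes 0 passed at a limma adjusted p under 0.05, beside 0.00764% of all tested rows. At an unadjusted limma p under 0.05, 1 was higher and 1 lower, beside 8.46% and 7.92% of all tested rows. The other 23 were neither. The median difference was -0.03, with 10 genes above 0 and 15 below, and it was -0.08 without perchlorate replicate 1. Of all tested rows 44.8% lay below 0. Groups did not overlap for 3 of the 25 genes on the higher side, beside 12.8% of all tested rows. On the lower side they did not overlap for 3, beside 11.2%.

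**Figure D2:**
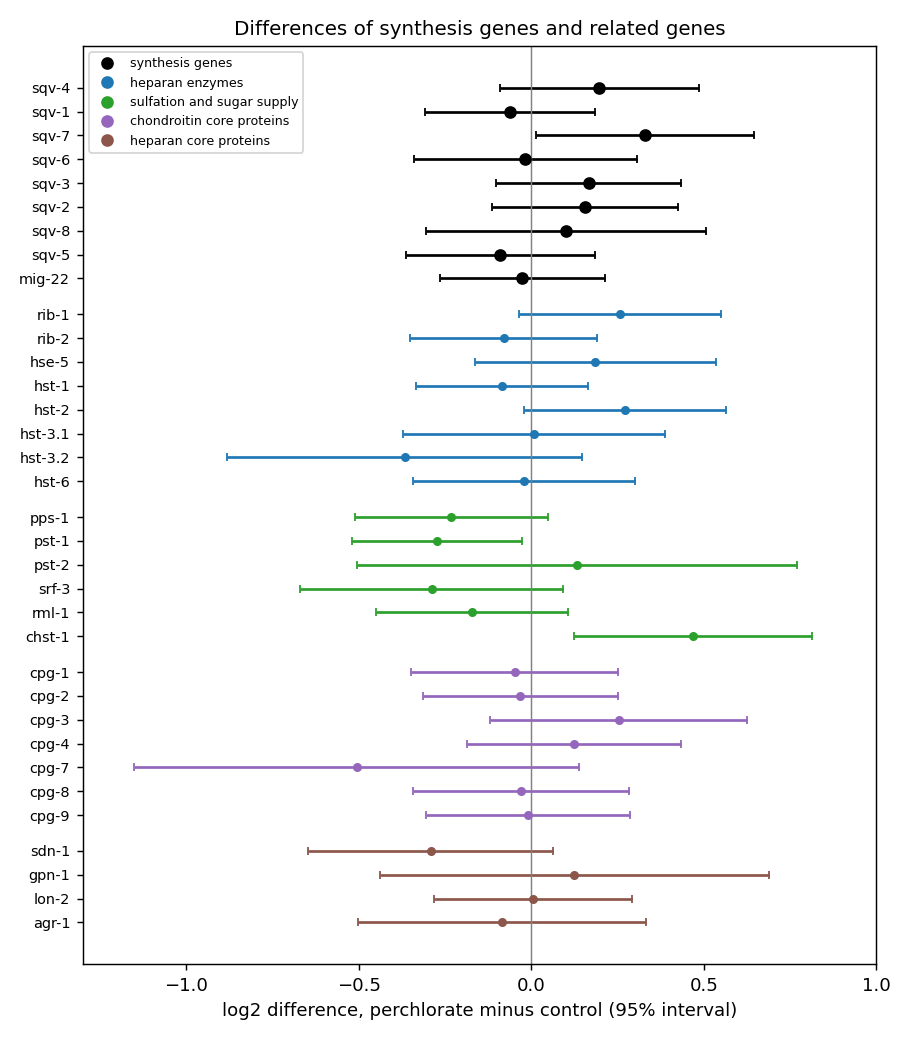
Log2 difference of perchlorate minus control with its 95% limma interval for the 9 synthesis genes (black) and 25 related genes in 4 lists (colours). The intervals of sqv-7 and chst-1 lie above 0 and that of pst-1 below 0; all other intervals include 0.

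Heparan chains are polymerised by the exostosin homologues rib-1 and rib-2 and then modified by the epimerase hse-5 and the sulfotransferases hst-1, hst-2, hst-3.1, hst-3.2 and hst-6. All 8 were measured, 0 reached an unadjusted limma p under 0.05, and their median difference was -0.01. The smallest p was that of hst-2, a 2-O-sulfotransferase, at 6.11, 5.77 and 5.998 with perchlorate, against 5.69, 5.67 and 5.70 in controls. Its groups did not overlap, and the difference was 0.27 (SE 0.124, limma adjusted p = 0.331). The groups of rib-1, chosen for mention after its values were seen, did not overlap either, with a difference of 0.26 (SE 0.124, limma adjusted p = 0.353). The widest interval in this list was that of hst-3.2, from -0.88 to 0.15; hst-3.1 and hst-3.2 both lay below the mean lower quartile of the arrays. Without perchlorate replicate 1 hst-3.2 was the related gene that was lower before adjustment, at -0.59 (SE 0.159, limma adjusted p = 0.221), against -0.37 with all arrays.

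Sulfation needs the donor PAPS, which pps-1 makes in the cytosol and pst-1 and pst-2 carry into the Golgi. The pst-1 values were 8.43, 8.43 and 8.41 with perchlorate, against 8.79, 8.68 and 8.62 in controls. Every perchlorate array was below every control, and the difference of pst-1 was -0.27 (SE 0.105, limma adjusted p = 0.265). This was the related gene that was lower before adjustment, and without perchlorate replicate 1 it no longer was, at a difference of -0.28. For pps-1, named after its values were seen, the groups did not overlap and the difference was -0.23 (SE 0.118, limma adjusted p = 0.377). By contrast pst-2 differed by 0.13 (SE 0.271), and by 0.27 without perchlorate replicate 1, with 6.83 on perchlorate replicate 2 and 5.79 to 6.18 on the other arrays.

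The chondroitin sulfotransferase gene chst-1 had the largest difference among the related genes that were higher. It measured 4.50, 4.22 and 4.08 with perchlorate, against 3.71, 3.95 and 3.73 in controls, so the groups did not overlap. The difference was 0.47 (SE 0.146, limma adjusted p = 0.201), and this was the related gene that was higher before adjustment. The difference of chst-1 was 0.35 without perchlorate replicate 1 (SE 0.136, limma adjusted p = 0.323). Its control values lay below the lower quartiles of the control arrays (4.002, 4.035 and 3.956), so the size of its difference is uncertain. The other measured genes of this list are srf-3, which encodes a Golgi transporter of UDP-sugars, and rml-1, a homologue of UDP-glucose pyrophosphorylases. They differed by -0.29 (SE 0.162) and -0.17 (SE 0.118). The 6 measured genes of this list had a median difference of -0.20, with 4 below 0 and 2 above. The median was -0.20 without perchlorate replicate 1 as well. Their summed linear signal was 1771 to 1877 on the perchlorate arrays and 2077 to 2085 on the control arrays. Bright genes weigh most in this sum. Control means were 9.38 for rml-1 and 9.30 for pps-1, against 6.04 for pst-2 and 3.80 for chst-1, the 2 genes above 0. The list was not tested as a whole.

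Among 7 chondroitin core protein genes 0 reached an unadjusted limma p under 0.05, and the median difference was -0.03, or -0.10 without perchlorate replicate 1. The eggshell proteoglycan genes cpg-1 and cpg-2 differed by -0.05 and -0.03, and by -0.14 and -0.10 without that array. The smallest p in this list was that of cpg-7, at 9.60, 10.54 and 10.67 with perchlorate, against 10.85, 10.70 and 10.78 in controls. Its groups did not overlap, and perchlorate replicate 1 lay far below the other arrays. The difference of cpg-7 was -0.51 (SE 0.274, limma adjusted p = 0.402) with all arrays and -0.17 (SE 0.122, limma adjusted p = 0.565) without perchlorate replicate 1.

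Of the heparan sulfate core protein genes 4 were read and 0 reached an unadjusted limma p under 0.05. The smallest p was that of sdn-1, the syndecan gene, at 8.38, 8.83 and 8.38 with perchlorate, against 8.79, 8.77 and 8.90 in controls. Perchlorate replicate 2 lay within the control range and the other perchlorate arrays below it, with a difference of -0.29 (SE 0.151, limma adjusted p = 0.383). The glypican genes gpn-1 and lon-2 differed by 0.13 (SE 0.239) and 0.01 (SE 0.122), and the agrin gene agr-1 by -0.08 (SE 0.177). Leaving out perchlorate replicate 1 gave 0.22 for gpn-1, -0.01 for lon-2 and -0.16 for agr-1.

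The same arrays differed in markers of the moulting epidermis. Of 11 measured moulting markers 10 were lower with perchlorate at an unadjusted limma p under 0.05, beside 7.92% of all tested rows. Their median difference was -1.23, 0 passed adjusted, and 0 lay below the lower quartile. Without perchlorate replicate 1, an alternative chosen after seeing the data, 10 were again lower and the median was -0.83. Their summed linear signal was 1387 to 3097 on the perchlorate arrays and 4482 to 5581 on the control arrays. The period homologue lin-42 was at 6.13, 6.51 and 6.78 with perchlorate, against 7.81, 7.90 and 7.43 in controls (difference -1.24, SE 0.203, limma adjusted p = 0.122). The protease inhibitor-like gene mlt-11 differed by -1.84 (SE 0.315, limma adjusted p = 0.125), and the hedgehog-related gene wrt-10 by -0.82 (SE 0.170, limma adjusted p = 0.146). The part of the moulting shift in the values of the synthesis genes was not tested.

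Other marker lists gave smaller shifts. Over all tested rows 7.92% were lower and 8.46% higher at an unadjusted limma p under 0.05. Without perchlorate replicate 1 these shares were 7.24% and 7.03%. Of 9 general epidermis markers 5 were lower and 0 higher at an unadjusted limma p under 0.05, with a median of -0.99 and a summed linear signal of 3404 to 5649 with perchlorate and 8634 to 10128 in controls. Again 5 were lower without perchlorate replicate 1, with a median of -0.73. The 5 were the cuticle collagen genes rol-6, sqt-3, dpy-5 and dpy-13 and the hedgehog-related gene wrt-2, at -1.59 to -0.99. A further cuticle collagen gene of the list, dpy-7, differed by -0.43 (SE 0.315), its groups overlapped, and it did not reach the threshold. Nor did the transcription factor genes of epidermal identity lin-26, elt-1 and elt-3, at -0.34, -0.22 and -0.09. These genes were named after their values were seen. Vulva markers, for the organ that gave the sqv genes their name, were lower in 4 of 11 and higher in 1, with a median of -0.18 and a summed signal of 1290 to 1492 with perchlorate and 1622 to 1755 in controls. Without perchlorate replicate 1 there was 1 lower vulva marker (cog-1) and 1 higher (ceh-2), with a list median of -0.11. The 3 that were no longer lower before adjustment, named after their values were seen, differed by -0.38 without that array and -0.50 with it (lin-11), by -0.32 and -0.45 (vab-23), and by -0.30 and -0.28 (lin-31). Germline markers reached that threshold in 0 of 9, with a median of 0.04 and overlapping sums of 9891 to 11037 with perchlorate and 10015 to 11241 in controls. Medians of the remaining lists were -0.33 for pharynx (3 of 6 lower), -0.32 for body wall muscle (4 of 7 lower), -0.22 for intestine (1 of 7 lower), -0.11 for neurons (2 of 8 lower and 1 higher), -0.01 for oocytes (0 of 6) and 0.17 for sperm (0 of 6). The pharynx list had 1 lower gene and a median of -0.27 without perchlorate replicate 1, and the oocyte median was then -0.10. The median distance of the 9 synthesis genes from their control means was -0.01, 0.19 and -0.06 on the perchlorate arrays, beside -0.03, 0.02 and 0.02 on the control arrays. The corresponding medians of the moulting markers were -1.88, -0.92 and -0.75 with perchlorate and 0.06, 0.13 and -0.19 in controls.

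**Figure D3:**
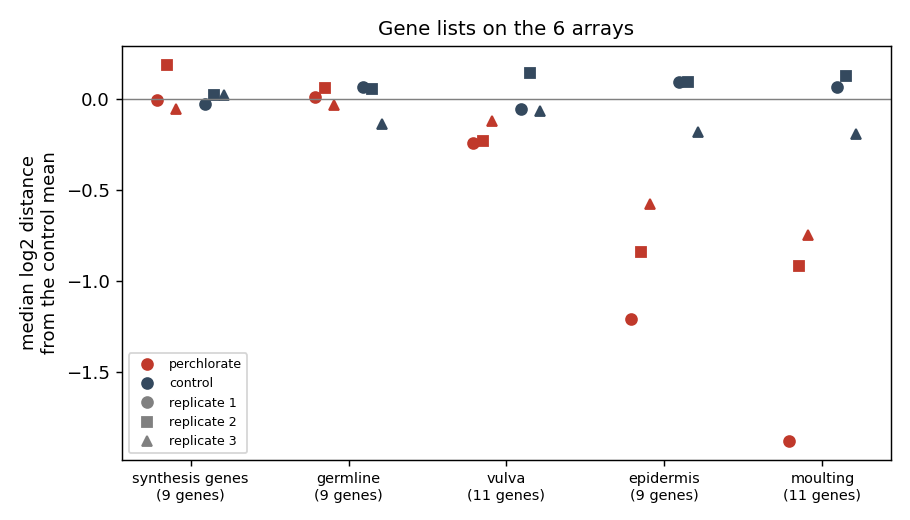
Median log2 distance of each gene list from its genes' control means, on each of the 3 perchlorate and 3 control arrays. The 9 synthesis genes lie between -0.06 and 0.19 on all arrays, and the moulting markers between -1.88 and -0.75 on the perchlorate arrays.

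The differences of the 9 genes were taken again under 15 other settings, 6 of them with 1 array left out. In none of these did a gene pass adjusted, the lowest limma adjusted p being 0.142 for sqv-7 among rows above the median level. The signs of sqv-1, sqv-2, sqv-3, sqv-4, sqv-5 and sqv-7 were the same in all 15, whereas sqv-6 changed sign in 5, and sqv-8 and mig-22 in 1 each.

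**Figure D4:**
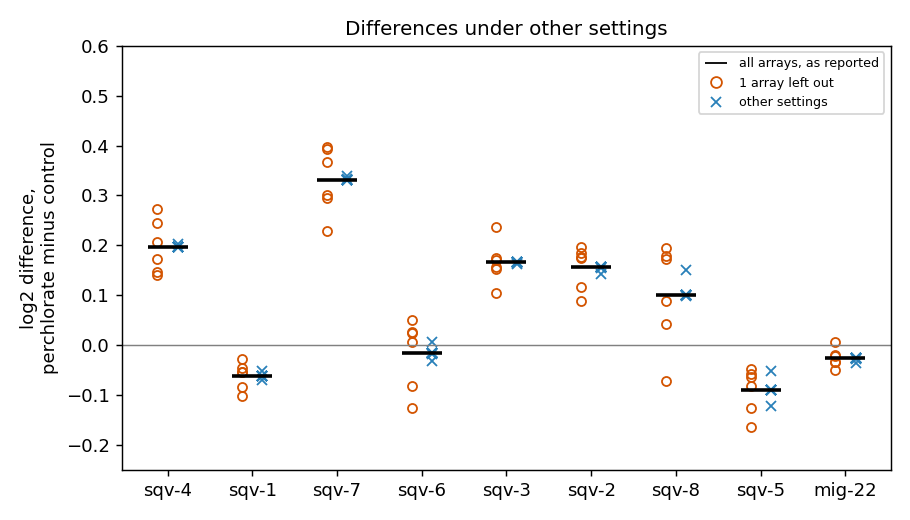
Log2 difference of perchlorate minus control for each of the 9 genes as reported (black bars), with 1 array left out (circles) and under the 9 other settings (crosses). The circles of sqv-6, sqv-8 and mig-22 lie on both sides of 0.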

How the data were processed

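Per the labels' protocols, total RNA was taken with Trizol and glass beads, cleaned on columns with DNase digestion, and turned into amplified cDNA carrying biotin. Per the submitters' processing notes, the authors made the deposited log2 values with RMA in Affymetrix Expression Console, which corrects background, normalises quantiles and summarises probes. Coordinates are left out, since no genome build is named; tool versions are not given in the sources used here. The table held 29317 rows; 25546 had 1 gene symbol in the platform annotation, 646 several and 3125 none. The 26192 rows with a gene were tested, and genes were named from rows with 1 symbol. Through gene IDs 25495 of these matched the RefSeq table of assembly WBcel235, which gave current symbols. Groups were compared by limma 3.58.1 in R 4.3.3 (lmFit, eBayes without trend, two-sided, Benjamini-Hochberg over all tested rows, threshold 0.05). The fit had 4 residual and 3.12 prior degrees of freedom; the number of arrays limits the precision. An exact permutation test of 3 against 3 arrays cannot go below p = 0.1 and was not used. The procedure was tested on simulated data. Genes of the pathway and marker lists were taken at their brightest row. The rule for named genes gave all 9 synthesis genes, in each pathway list up to 4 genes at an unadjusted p under 0.05 or otherwise the gene with the smallest p, the 5 nearest profiles, and lin-42 with the 2 moulting markers of smallest p. Genes and lists were chosen with earlier results of these data known. The listed genes gale-1, cpg-5 and cpg-6 matched no row. The rows of unc-52 and cle-1, on which the annotation gives the symbol with 2 gene IDs, were counted among rows with several genes and not analysed here. Alternatives were each array left out, a replicate block, quantile normalisation again, median centring, 2 filters on dim rows, all rows, a trended and robust prior, array weights, and the mean of all rows of a gene.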

Additional observations from a re-analysis of the deposited data

How the results depend on the processing

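The 3 arrays a group limit the precision of each difference, and no value here has a sampling depth behind it. Labels give both groups replicate numbers 1 to 3 but no shared culture or day, and deviations of same-numbered arrays correlated at 0.03, -0.02 and -0.01, so the numbers were not taken as pairs. With the replicate block 0 synthesis genes reached an unadjusted limma p under 0.05, beside 7.52% of all rows lower and 7.4% higher. Of the related genes 0 were lower and 1 was higher with the block. For sqv-7 the unadjusted limma p was then 0.0695. With each array centred on its median 1 synthesis gene in place of 3 did not overlap on the higher side (sqv-7), beside 12.1% of all rows. The trended and robust prior gave 2 lower related genes in place of 1, beside 8.87% of all rows. Leaving out 1 array gave 0 to 1 higher synthesis genes at that unadjusted p, beside 5.08% to 9.34% of all rows. Synthesis genes that did not overlap numbered 3 to 4 on the higher side, beside 16.4% to 20.6% of all rows. On the lower side they numbered 0 to 1 (sqv-1 without perchlorate replicate 2, sqv-5 without control replicate 3), beside 13.7% to 16.8%. Related genes at that unadjusted p were 0 to 2 lower, beside 5.34% to 8.33% of all rows, and 0 to 2 higher, beside 5.08% to 9.34%. They were 0 lower without control replicate 1 or 2, and 0 higher without control replicate 1. The median of the synthesis genes lay between -0.0502 and 0.179 there, below 0 without perchlorate replicate 2, and that of the related genes between -0.0877 and 0.0475, above 0 without perchlorate replicate 3. The differences without 1 array ran from -0.126 to 0.0497 for sqv-6, from -0.0731 to 0.196 for sqv-8 and from -0.0502 to 0.0066 for mig-22; sqv-6 was at 0.0256, 0.0497, 0.0249 and 0.006 without perchlorate replicates 1 and 3 and control replicates 1 and 3, and at 0.0051 with array weights. The cause of these changes was not tested. Over all rows limma called 2 as reported, 328 with the trended and robust prior, 97 among rows above the median level, 1 with quantile normalisation again, with median centring and over all rows of the table, and 0 with the block, with any array left out and with gene means, where 0 synthesis genes were called in each.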
